A study of Homo sapiens with 6 samples.

Results

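RNA polymerase II, RNA polymerase III and the general factors that load them onto promoters were followed in HCT116 cells given the RNA polymerase I inhibitor BMH-21. The set holds 44 of the 25662 genes in the deposited table, chosen by symbol alone. It takes the POLR2, POLR3, GTF2A, GTF2B, GTF2E, GTF2F, GTF2H, GTF3A and GTF3C genes with BRF1, BRF2 and BDP1. Of these, 24 belong to the Pol II machinery, counting the 5 subunits that all 3 nuclear polymerases share, and 20 to the Pol III machinery. HCT116 is an established human colorectal carcinoma cell line, and BMH-21 is a small molecule that intercalates into DNA and inhibits Pol I, the polymerase of the ribosomal RNA genes. The BMH-21 group had 3 libraries of HCT116 cells given 1 µM BMH-21 for 24 h, and the other group had 3 control libraries of HCT116 cells given DMSO, the solvent, per the labels' protocols. The control titles give 0 h, so the drug cannot be told apart from a day in culture. The design text calls the replicates biological.

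RNA polymerase II makes messenger RNA, and RNA polymerase III makes transfer RNA, 5S ribosomal RNA, U6 and other short RNAs. TFIIA, TFIIB, TFIIE, TFIIF and TFIIH, with the TATA-binding complex TFIID, assemble Pol II at a promoter, and TFIIH opens the DNA. Pol III is recruited by TFIIIB, which TFIIIC places on transfer RNA genes, and TFIIIA adds the 5S genes to its targets. Both enzymes share small subunits with Pol I, so the POLR2E, POLR2F, POLR2H, POLR2K and POLR2L genes serve all 3 polymerases.

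Promoters of 35 of the 44 genes were matched in RefSeq (GRCh38.p14), each as the 250 bases before and 50 bases after the annotated start. Those of GTF2B and GTF3A, general factors that rose in the comparison below, and of BRF1 and GTF3C5, Pol III factors that fell, are shown 5′ to 3′ on the strand of the gene as examples from the 8 genes whose calls held under every alternative tried. Capitals mark exact matches to the motifs named in the next sentences. They lie at chr1:88891518-88891817 (minus strand) for GTF2B, chr13:27424369-27424668 (plus) for GTF3A, chr14:105315540-105315839 (minus) for BRF1 and chr9:133030747-133031046 (plus) for GTF3C5.
GTF2B: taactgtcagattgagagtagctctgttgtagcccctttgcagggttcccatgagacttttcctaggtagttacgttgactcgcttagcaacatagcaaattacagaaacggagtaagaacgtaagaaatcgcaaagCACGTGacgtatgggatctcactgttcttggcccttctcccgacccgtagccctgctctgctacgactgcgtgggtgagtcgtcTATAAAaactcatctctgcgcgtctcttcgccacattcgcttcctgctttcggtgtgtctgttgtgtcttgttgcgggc
GTF3A: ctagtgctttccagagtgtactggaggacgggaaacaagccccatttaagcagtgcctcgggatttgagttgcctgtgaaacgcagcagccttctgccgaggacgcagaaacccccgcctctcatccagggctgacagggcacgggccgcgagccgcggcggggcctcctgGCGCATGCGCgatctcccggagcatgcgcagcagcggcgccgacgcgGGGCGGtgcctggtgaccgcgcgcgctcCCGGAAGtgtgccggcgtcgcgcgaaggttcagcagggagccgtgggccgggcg
BRF1: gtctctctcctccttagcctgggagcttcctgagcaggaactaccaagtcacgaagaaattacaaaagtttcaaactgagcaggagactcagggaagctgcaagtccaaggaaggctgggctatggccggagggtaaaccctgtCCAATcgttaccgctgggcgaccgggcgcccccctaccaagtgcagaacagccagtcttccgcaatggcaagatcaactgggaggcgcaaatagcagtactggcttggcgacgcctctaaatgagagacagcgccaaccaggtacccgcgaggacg
GTF3C5: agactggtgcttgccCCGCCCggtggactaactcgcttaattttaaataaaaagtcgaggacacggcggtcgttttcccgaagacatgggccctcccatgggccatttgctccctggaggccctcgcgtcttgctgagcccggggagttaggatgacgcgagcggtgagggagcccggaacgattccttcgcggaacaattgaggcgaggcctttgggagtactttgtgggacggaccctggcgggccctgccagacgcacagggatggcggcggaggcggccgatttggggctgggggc

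The GTF2B window held a TATAAA box beginning 29 bases before the start and an E-box, CACGTG, beginning 113 bases before it. GTF3A held an NRF1 motif (GCGCATGCGC), a GC box (GGGCGG) and an ETS motif (CCGGAAG), BRF1 held CCAAT, and GTF3C5 held the GC box on its other strand. Each motif was searched on both strands, and motifs could overlap each other. The ETS letters occurred in 17 of the 35 promoters (48.6%), against 10.67% of all 27305 promoters in the RefSeq table and 20.13% of the 9455 promoters of genes kept for the test. The E-box occurred in 9 of 35 (25.7%), against 7.43% of all promoters and 10.52% of those of kept genes, with 3 of 19 in the Pol II machinery and 6 of 16 in the Pol III machinery. CCAAT occurred in 8 of 35 (22.9%), against 35.7% of all promoters and 36.95% of those of kept genes, and the GC box in 21 of 35 (60.0%), against 44.59% of all promoters and 72.42% of those of kept genes. TATAAA occurred in GTF2B and GTF3C3 only of the 35 (5.7%), against 11.95% of all promoters and 5.07% of those of kept genes. The NRF1 motif, the YY1 motif (AAGATGGCG) and the E2F motif (GGCGGGAA) each occurred in 3 of 35 (8.6%), against 1.36%, 1.85% and 3.18% of all promoters and 2.32%, 4.18% and 5.31% of those of kept genes. These matches describe the letters and not binding.

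Values are TPM (transcript abundance relative to the whole library), the share of a library taken by a gene's transcripts after length is divided out, so they can be set side by side between genes. Sequencing depth cannot be read from TPM, and in bulk RNA fewer cells and less RNA per cell cannot be told apart. Each gene was tested with limma on log2(TPM + 1), a scale that understates the change of low genes. A gene was called at an adjusted p under 0.05 over the 12041 genes with at least 1 TPM in at least 3 of the 6 libraries. Of these, 36.4% were called, 19.4% higher and 16.9% lower with BMH-21, with a median log2 fold change of 0.06. Groups were said not to overlap where all 3 libraries of one lay beyond all 3 of the other, which held for 51.5% of the genes tested.

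The libraries were uneven. BMH-21 replicate 3 had 26.1% of its TPM in mitochondrial-encoded transcripts and 16.5% in ribosomal protein transcripts, against 20.3% to 21.3% and 21.6% to 22.7% in the other 2 BMH-21 libraries. Control replicate 1 had 25.8% and 19.9%, against 21.3% to 21.6% and 20.7% to 21.1% in the other 2 control libraries. Both deviated more from their own group than the other libraries did, so results are also given without them, a choice made after seeing the data. Without these libraries 58.6% of genes were called, and the median log2 fold change over all genes was -0.07. Epithelial markers EPCAM, CDH1, KRT8, KRT18 and CDX2 were at 1 TPM or more in every library, while CDH17, GPA33 and VIL1 were under 1 TPM. The 8 markers found summed to 8352 to 9529 TPM in BMH-21 libraries and 4176 to 4362 TPM in control libraries. Most of each sum was KRT8 (means of 6586 TPM with BMH-21 and 2813 TPM in controls) and KRT18 (2226 and 1349 TPM). EPCAM and CDX2 were also higher with BMH-21, while CDH1 was level (21.4 and 21.6 TPM). Of 10 markers of other cell types, COL1A1 alone passed 1 TPM, their sum was 2.31 to 3.90 TPM with BMH-21 and 4.16 to 5.47 TPM in controls, and COL1A2 and DCN were at 0 throughout. The part of these library and marker differences in the results below was not tested.

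Of the 44 genes, 43 were at 1 TPM or more in all 6 libraries and were tested, and 16 of them were called (37.2%). The share called lay beside the 36.4% of all genes. With BMH-21, 12 were higher and 4 lower, and the median log2 fold change was 0.19. Groups did not overlap for 24 of the 43, 16 higher and 8 lower. Over all 12041 genes this held for 51.5%, with 3564 higher and 2643 lower. In the Pol II machinery 9 of 24 rose and 1 fell, with a median of 0.20. Without the shared subunits, 8 of 19 rose and none fell, with a median of 0.33. In the Pol III machinery 3 of 19 rose and 3 fell, with a median of 0.19. The difference between the machineries was not tested. Their spread of fold changes was -0.40 to 0.99 for Pol II and -0.83 to 0.57 for Pol III.

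**Figure D1:**
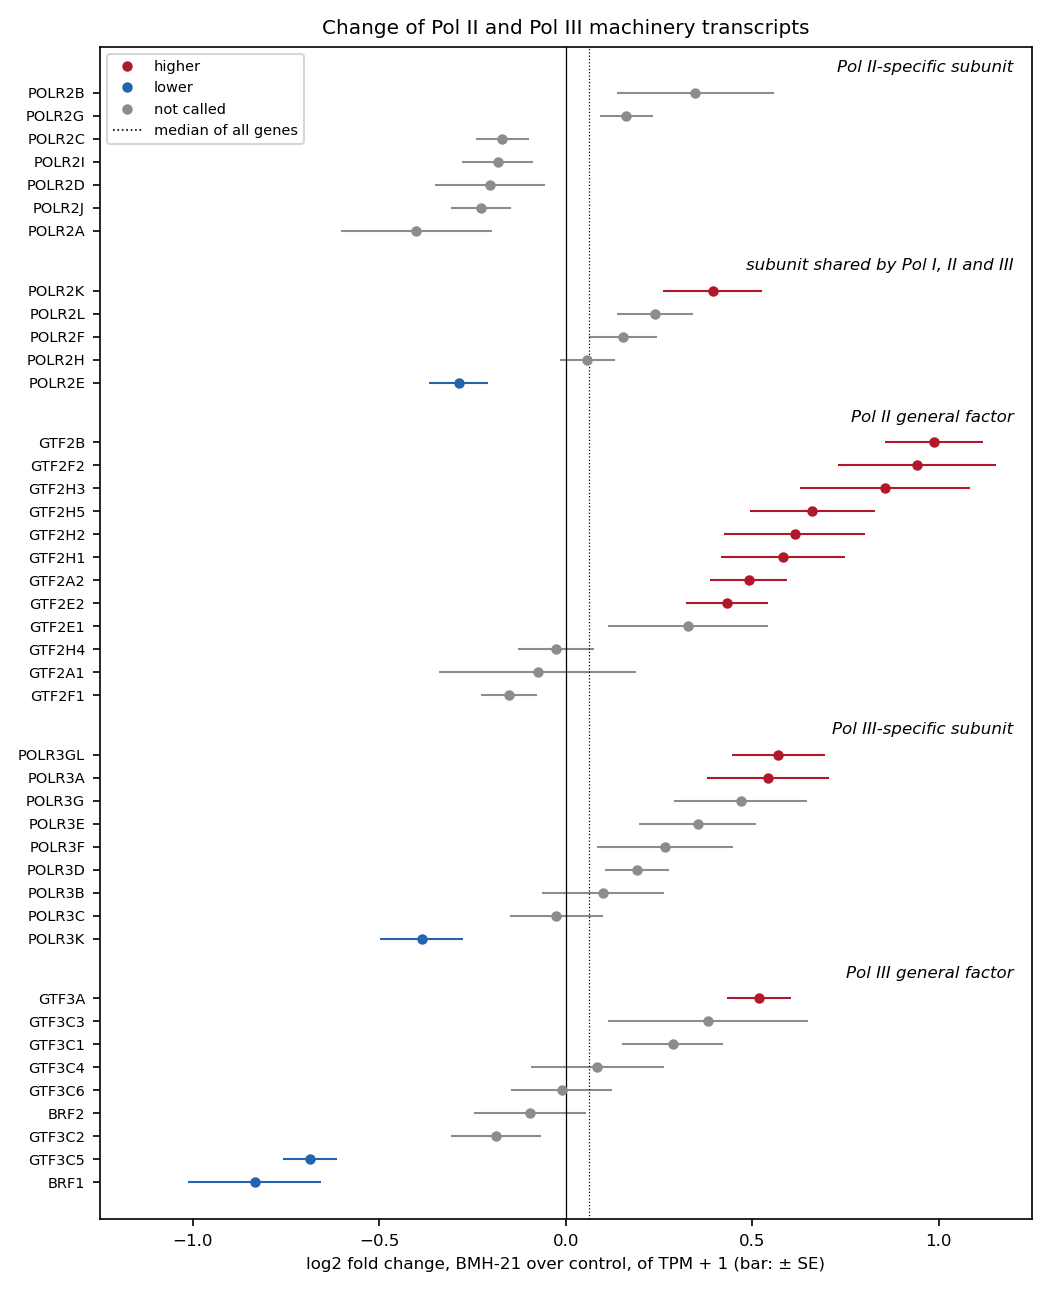
Log2 fold change of TPM + 1, BMH-21 over control, for 42 of the 43 genes tested, grouped by role; points are estimates, bars are standard errors, colours give the call, and the dotted line is the median of all genes (0.06). The Pol II general factors reach 0.99 at GTF2B, while BRF1 (-0.83) and GTF3C5 (-0.69) lie farthest to the left.

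Counts by role stand beside 19.4% higher and 16.9% lower of all genes, and differences between roles were not tested. Among the Pol II general factors 8 of 12 rose and none fell, with a median of 0.54. None of the 7 Pol II-specific subunits was called, 1 of 5 shared subunits rose and 1 fell, 2 of 10 Pol III subunits rose and 1 fell, and 1 of 9 Pol III general factors rose and 2 fell. Their median log2 fold changes were, in that order, -0.18, 0.15, 0.24 and -0.01. The 12 Pol II general factors summed to 456, 426 and 465 TPM in BMH-21 replicates 1, 2 and 3, against 312, 376 and 357 TPM in control replicates 1, 2 and 3. The 7 Pol II-specific subunits summed to 544, 550 and 572 TPM with BMH-21, against 599, 597 and 582 TPM in controls. The Pol II general factor sums did not overlap and were higher with BMH-21. The Pol II-specific subunit sums did not overlap and were lower, though 572 TPM in BMH-21 replicate 3 lay near 582 TPM in control replicate 3. Sums of the Pol III-specific subunits also did not overlap and were higher with BMH-21. Those of the shared subunits and of the Pol III general factors overlapped. The sums were not tested, and among single genes groups did not overlap for 51.5%.

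TFIIB bridges the TATA-binding protein and Pol II and helps place the start of transcription. Its gene, GTF2B (chromosome 1, 88852932 to 88891944, GENCODE 29 on GRCh38), had 26.0, 24.6 and 24.1 TPM with BMH-21, against 10.6, 11.5 and 14.3 TPM in controls. The means were 24.9 ± 0.979 and 12.1 ± 1.89 TPM (SD, n = 3 each), a ratio of 2.05. The log2 fold change was 0.99 (SE 0.13, limma adjusted p = 0.00055), and every BMH-21 library lay above every control library. Leaving out 1 library at a time gave 0.90 to 1.10.

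TFIIF travels with Pol II and consists of a large subunit, GTF2F1, and a small one, GTF2F2. GTF2F2 (chromosome 13, 45120515 to 45284909) had 25.3, 23.1 and 30.4 TPM with BMH-21, against 8.95, 16.3 and 15.3 TPM in controls, and rose by 0.94 (SE 0.21, adjusted p = 0.0089). Control replicate 1 was the lowest library, and without it and BMH-21 replicate 3 the change was 0.58 (adjusted p = 0.0013). GTF2F1 had 74.6, 74.1 and 72.2 TPM with BMH-21, against 82.0, 85.5 and 78.6 TPM in controls, a log2 fold change of -0.15 that was not called (adjusted p = 0.14), though the groups did not overlap. The ratio of GTF2F2 to GTF2F1 within a library was 0.339, 0.311 and 0.421 with BMH-21 and 0.109, 0.191 and 0.194 in controls. GTF2F1 stayed the more abundant partner in all 6 libraries.

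TFIIH carries the helicases that melt promoter DNA and also acts in nucleotide excision repair. Of the 5 core genes in the set, GTF2H1, GTF2H2, GTF2H3 and GTF2H5 rose, and GTF2H4 was not called (log2 fold change -0.03, adjusted p = 0.86). GTF2H3 (p34) had 26.1, 28.0 and 30.2 TPM with BMH-21, against 10.0, 21.6 and 15.6 TPM in controls, a change of 0.86 (SE 0.23, adjusted p = 0.019). GTF2H5 (p8, the smallest subunit) had 31.1, 27.6 and 21.7 TPM with BMH-21, against 13.5, 19.3 and 16.9 TPM in controls, a change of 0.66 (SE 0.17, adjusted p = 0.015). For both, the lowest BMH-21 library exceeded the highest control library.

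GTF2H2 (p44) had 19.7, 17.6 and 28.0 TPM with BMH-21, against 11.4, 16.1 and 13.7 TPM in controls, a change of 0.61 (SE 0.19, adjusted p = 0.033). Reads from its near-identical copy GTF2H2C cannot be cleanly separated from it, which leaves its value uncertain. GTF2H2C itself had 17.5, 19.5 and 22.5 TPM with BMH-21 and 12.4, 18.9 and 18.2 TPM in controls and was not called (log2 fold change 0.27, adjusted p = 0.26). GTF2H1 (p62) had 15.5, 14.8 and 15.4 TPM with BMH-21, against 7.92, 12.6 and 9.55 TPM in controls, a change of 0.58 (SE 0.17, adjusted p = 0.024). GTF2H4 (p52) averaged 54.9 ± 5.94 TPM with BMH-21 and 55.8 ± 3.32 TPM in controls (SD, n = 3 each). It shares 79.0% of its exonic bases with VARS2 on the same strand, so reads of the pair may be mixed.

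The 4 TFIIH calls depended on single libraries. GTF2H3 had an adjusted p of 0.052 without BMH-21 replicate 2 and of 0.053 without BMH-21 replicate 3. GTF2H5 had 0.059 and 0.054 without BMH-21 replicates 1 and 2. GTF2H1 lost its call without control replicate 1 (0.055), control replicate 3 (0.073), BMH-21 replicate 1 (0.072) or BMH-21 replicate 2 (0.065). GTF2H2 lost it without control replicate 1 (0.10), control replicate 3 (0.075), BMH-21 replicate 1 (0.060) or BMH-21 replicate 3 (0.060). Without control replicate 1 and BMH-21 replicate 3 together all 4 were called, with GTF2H3 at 0.53 and GTF2H2 at 0.31, both over 1.5 times smaller. With no filter on low values GTF2H1, GTF2H2 and GTF2H3 had adjusted p of 0.053, 0.085 and 0.063.

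TFIIA and TFIIE complete the set. TFIIA steadies the TATA-binding protein on DNA, and its small subunit gene GTF2A2 had 137, 110 and 127 TPM with BMH-21, against 80.5, 93.8 and 90.6 TPM in controls, a change of 0.49 (SE 0.10, adjusted p = 0.0062). With a length and GC trend removed it was 0.26 (adjusted p = 0.028). The large subunit gene GTF2A1 was far less abundant, with 2.70, 2.37 and 3.79 TPM with BMH-21 and 1.75, 4.24 and 3.84 TPM in controls, and was not called (-0.08, adjusted p = 0.85). Once control replicate 1 and BMH-21 replicate 3 were dropped, it was called lower (-0.51, adjusted p = 0.0098). TFIIE brings in TFIIH. Its beta subunit gene GTF2E2 had 43.4, 40.6 and 45.8 TPM with BMH-21, against 27.6, 35.2 and 33.0 TPM in controls, a change of 0.43 (SE 0.11, adjusted p = 0.016). The alpha subunit gene GTF2E1 averaged 6.62 ± 1.05 TPM with BMH-21 and 5.16 ± 1.45 TPM in controls (SD, n = 3 each), with overlapping groups and no call (adjusted p = 0.27).

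**Figure D2:**
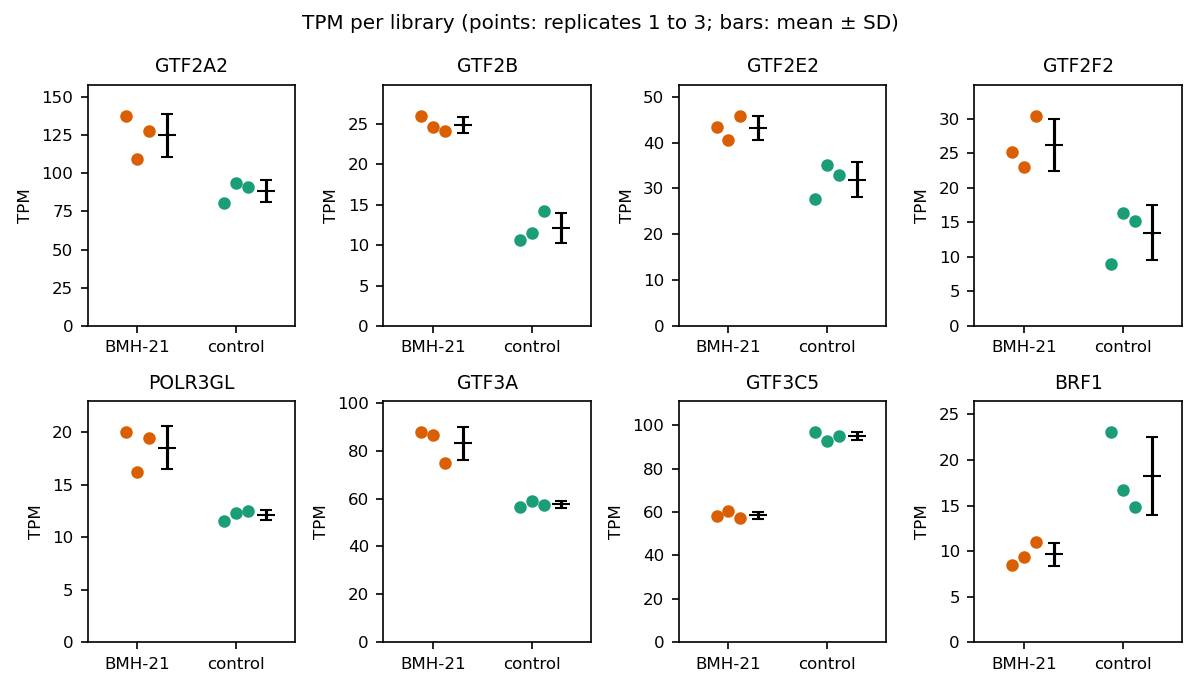
TPM in each library for the 8 genes whose call held in all 16 alternative settings, with BMH-21 left of control; points are replicates 1 to 3, and bars are the mean ± SD. The groups do not overlap in any panel, with GTF2A2, GTF2B, GTF2E2, GTF2F2, POLR3GL and GTF3A higher with BMH-21 and GTF3C5 and BRF1 lower.

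The catalytic core of Pol II is formed by POLR2A and POLR2B, and neither was called. POLR2A (chromosome 17, 7484366 to 7514616), the largest subunit with the C-terminal repeats, had 51.6, 56.9 and 95.9 TPM with BMH-21, against 94.3, 84.3 and 82.6 TPM in controls. Replicates 1 and 2 of BMH-21 lay below every control library and replicate 3 above all of them, and the log2 fold change of -0.40 (SE 0.20) was not called (adjusted p = 0.16). Without BMH-21 replicate 3 it was -0.67 and called (adjusted p = 0.0010), and without control replicate 1 as well it was -0.61 (adjusted p = 0.00041). POLR2B, which forms the active cleft with POLR2A, had 30.5, 28.2 and 34.7 TPM with BMH-21, against 16.3, 30.0 and 28.7 TPM in controls, and was not called (0.35, SE 0.21, adjusted p = 0.23). Its low value was that of control replicate 1.

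The other Pol II-specific subunits moved little. POLR2G, a subunit of the dissociable stalk, averaged 162 ± 6.24 TPM with BMH-21 and 145 ± 5.38 TPM in controls. POLR2C, an assembly-platform subunit, averaged 101 ± 3.07 TPM with BMH-21 and 114 ± 3.38 TPM in controls. POLR2J, its partner, averaged 83.1 ± 5.31 TPM with BMH-21 and 97.4 ± 3.67 TPM in controls, the nearest to a call of the 7 (log2 fold change -0.23, SE 0.08, adjusted p = 0.053). POLR2I, a cleft-edge subunit that acts in proofreading, averaged 71.7 ± 6.98 TPM with BMH-21 and 81.3 ± 4.57 TPM in controls, and 32.9% of its exonic bases overlap TBCB on the other strand. AD001527.2, also annotated on the other strand but without deposited values, overlaps 61.9% of the POLR2I exonic bases. POLR2D, the other stalk subunit, averaged 37.8 ± 8.54 TPM with BMH-21 and 43.1 ± 2.81 TPM in controls (SD, n = 3 each throughout). POLR2G, POLR2C, POLR2J and POLR2I had groups that did not overlap, the first of them higher with BMH-21, while POLR2D overlapped. Over all genes tested, groups did not overlap for 51.5%. Without control replicate 1 and BMH-21 replicate 3, POLR2A, POLR2C, POLR2D and POLR2J were called lower and POLR2G higher. That was 71.4% of the 7, against 58.6% of all genes in that setting.

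The subunits shared by all 3 polymerases included POLR2L and POLR2E, the most abundant transcripts of the set in controls, and they divided. POLR2E, which sits at the jaw of the enzyme, had 269, 296 and 263 TPM with BMH-21, against 358, 323 and 331 TPM in controls, a change of -0.29 (SE 0.08, adjusted p = 0.021). POLR2K, a small zinc-binding subunit, had 101, 85.9 and 68.3 TPM with BMH-21, against 60.7, 66.7 and 64.0 TPM in controls, a change of 0.39 (SE 0.13, adjusted p = 0.048). Neither pair of groups overlapped, but both calls sat near the threshold. The POLR2E call was lost without control replicate 1 (adjusted p = 0.059), control replicate 3 (0.060) or BMH-21 replicate 1 (0.069), and with either rescaling of the libraries, by a trimmed mean (0.072) or by medians of ratios (0.078). The POLR2K call was lost when any library other than BMH-21 replicate 3 was left out (0.079 to 0.14, with a change of 0.26 without BMH-21 replicate 1), and with either rescaling (0.13 and 0.16). POLR2L, another zinc-binding subunit, averaged 403 ± 54.0 TPM with BMH-21 and 339 ± 10.2 TPM in controls, where BMH-21 replicate 3 (343 TPM) lay within the control range and replicates 1 and 2 (448 and 419 TPM) above it. It was not called (0.24, adjusted p = 0.098), although it was without BMH-21 replicate 3 (0.35, adjusted p = 0.0026), and 22.5% of its exonic bases overlap CD151 on the other strand. POLR2F averaged 180 ± 19.2 TPM with BMH-21 and 161 ± 4.22 TPM in controls, and POLR2H 239 ± 15.4 TPM with BMH-21 and 229 ± 3.22 TPM in controls, with overlapping groups and no call.

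**Figure D3:**
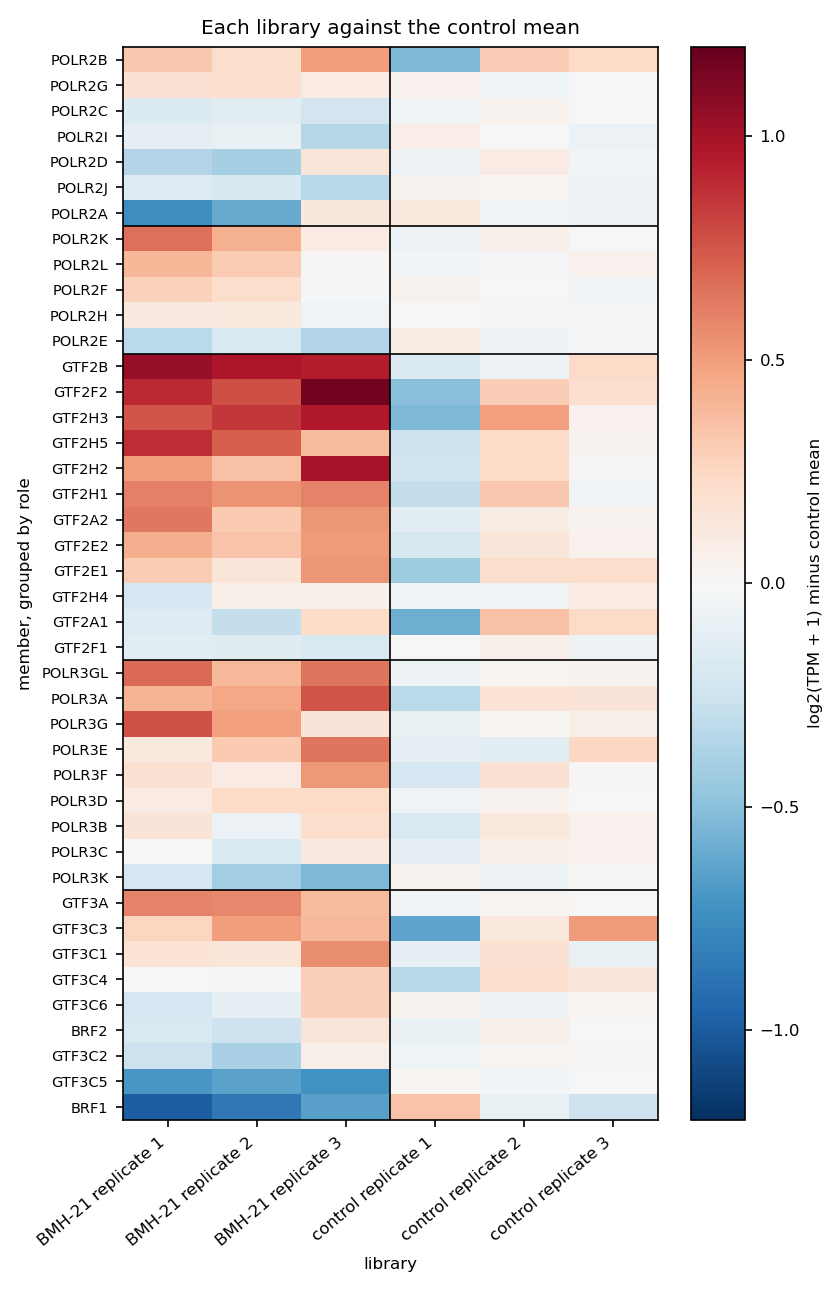
Log2(TPM + 1) of 42 of the 43 genes in each library minus the control mean of the gene, with BMH-21 libraries left of control libraries and genes grouped by role; red is above and blue below the control mean. Control replicate 1 is low for GTF2F2, GTF2H3, GTF2A1, POLR2B and GTF3C3, and BMH-21 replicate 3 departs from the other BMH-21 libraries at POLR2A.

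Pol III has its own catalytic pair, a stalk, and a trimer that links it to TFIIIB. Of its 10 specific subunits, POLR3GL and POLR3A rose and POLR3K fell. POLR3A (chromosome 10, 77969251 to 78029545), the largest subunit, had 20.7, 21.5 and 26.6 TPM with BMH-21, against 12.1, 17.3 and 17.3 TPM in controls, a change of 0.54 (SE 0.16, adjusted p = 0.031). The groups did not overlap, but the call was lost without control replicate 1 (adjusted p = 0.067), BMH-21 replicate 2 (0.065) or BMH-21 replicate 3 (0.070), and with no filter on low values (0.074). Without control replicate 1 and BMH-21 replicate 3 together the change was 0.28 (adjusted p = 0.011). POLR3B, the second-largest subunit, was at 2.78, 2.24 and 2.91 TPM with BMH-21 and at 1.99, 2.70 and 2.51 TPM in controls, with overlapping groups and no call (0.10, adjusted p = 0.67). POLR3A exceeded POLR3B by 7.46, 9.64 and 9.14 times in BMH-21 libraries and by 6.09, 6.39 and 6.87 times in control libraries.

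Vertebrate Pol III exists in alternative forms that carry either POLR3G, known from stem and tumour cells, or its paralog POLR3GL, widespread in differentiated tissue. POLR3GL (chromosome 1, 145964702 to 145978848) had 20.0, 16.2 and 19.4 TPM with BMH-21, against 11.5, 12.3 and 12.5 TPM in controls, and rose by 0.57 (SE 0.12, adjusted p = 0.0078). POLR3G (chromosome 5, 90471748 to 90514553) had 11.9, 9.72 and 7.49 TPM with BMH-21, against 6.16, 6.72 and 7.0 TPM in controls, with no overlap but no call (0.47, SE 0.18, adjusted p = 0.069). Without BMH-21 replicate 3, its lowest BMH-21 library, POLR3G was called (0.63, adjusted p = 0.010). POLR3GL was the more abundant paralog in every library, and 21.2% of its exonic bases overlap another annotated gene on the same strand, so its reads may be mixed. The log2 ratio of POLR3G to POLR3GL was -0.95 ± 0.37 with BMH-21 and -0.87 ± 0.03 in controls (SD, n = 3 each), a difference of -0.08 (two-sided exact permutation p = 1, where 3 against 3 allows 0.1 at the smallest). The ratio of TPM within a library was 0.596, 0.601 and 0.386 with BMH-21 and 0.534, 0.547 and 0.560 in controls. BMH-21 replicates 1 and 2 lay above every control library and replicate 3 below all of them. Without BMH-21 replicate 3 the difference in the log2 ratio was 0.13.

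POLR3K, a subunit needed for transcript cleavage and termination, had 26.1, 22.5 and 20.6 TPM with BMH-21, against 31.3, 29.1 and 30.6 TPM in controls, a change of -0.39 (SE 0.11, adjusted p = 0.025). The groups did not overlap, though the call was lost without any 1 of the control replicates (0.061 to 0.083) and without BMH-21 replicate 2 (0.085). None of the other subunits was called. POLR3E and POLR3D, which form the TFIIF-like arm of Pol III, averaged 39.5 ± 7.58 and 43.4 ± 2.35 TPM with BMH-21, against 30.5 ± 4.91 and 37.9 ± 1.12 TPM in controls. POLR3C and POLR3F, partners of POLR3G in the trimer, averaged 16.5 ± 1.74 and 4.78 ± 0.915 TPM with BMH-21, against 16.7 ± 1.22 and 3.80 ± 0.639 TPM in controls (SD, n = 3 each throughout). POLR3D did not overlap between groups and was higher with BMH-21, while POLR3C, POLR3E and POLR3F overlapped.

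The Pol III general factors held the largest falls of the set. TFIIIB is built from BDP1, the TATA-binding protein and either BRF1, used at transfer RNA and 5S genes, or BRF2, used at U6-type genes. BRF1 (chromosome 14, 105209286 to 105315589) had 8.50, 9.41 and 11.1 TPM with BMH-21, against 23.0, 16.7 and 14.9 TPM in controls. It fell by 0.83 on the log2 scale (SE 0.18, adjusted p = 0.0068), 1.89-fold lower in mean TPM, with no overlap. Leaving out 1 library at a time gave -0.96 to -0.66. BRF2 had 8.76, 8.30 and 11.2 TPM with BMH-21 and 9.48, 10.6 and 10.1 TPM in controls, with overlapping groups and no call (-0.09, adjusted p = 0.66). Since 59.0% of its exonic bases lie opposite ADGRA2, its value is uncertain if strand was not used.

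The ratio of BRF1 to BRF2 was 0.970, 1.13 and 0.987 in BMH-21 libraries and 2.43, 1.58 and 1.47 in control libraries. The highest BMH-21 ratio lay below the lowest control ratio. BDP1 was under 1 TPM everywhere, with 0.425, 0.510 and 0.329 TPM with BMH-21 and 0.193, 0.225 and 0.258 TPM in controls, and was not tested. The TATA-binding protein gene TBP averaged 16.5 ± 3.14 TPM with BMH-21 and 17.7 ± 1.97 TPM in controls (SD, n = 3 each) and was not called (-0.10, adjusted p = 0.64).

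TFIIIC reads the internal promoter of transfer RNA genes with 6 subunits, and GTF3C5 alone of them was called. GTF3C5 (chromosome 9, 133030675 to 133058503), which contacts the A box, had 58.1, 60.4 and 57.1 TPM with BMH-21, against 96.6, 92.9 and 94.9 TPM in controls. It fell by 0.69 on the log2 scale (SE 0.07, adjusted p = 0.00014), 1.62-fold lower in mean TPM, with no overlap and the smallest adjusted p of the set. The other 5 overlapped between groups. GTF3C1 averaged 50.3 ± 8.73 TPM with BMH-21 and 40.8 ± 4.76 TPM in controls, and GTF3C3 8.69 ± 0.835 TPM with BMH-21 and 6.81 ± 2.90 TPM in controls (SD, n = 3 each). GTF3C2, GTF3C4 and GTF3C6 had log2 fold changes of -0.19, 0.08 and -0.01. Without BMH-21 replicate 3, GTF3C2 was called lower (-0.32, adjusted p = 0.015).

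TFIIIA, the zinc finger factor of the 5S genes, was the 1 Pol III factor that rose. GTF3A (chromosome 13, 27424544 to 27435823) had 87.5, 86.4 and 74.9 TPM with BMH-21, against 56.4, 58.9 and 57.3 TPM in controls, a change of 0.52 (SE 0.09, adjusted p = 0.0020). Every BMH-21 library lay well above the controls, and leaving out 1 library at a time gave 0.48 to 0.59.

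Without control replicate 1 and BMH-21 replicate 3, the 12 genes called higher and the 4 called lower kept their calls, and 6 more were higher and 7 more lower. The Pol II machinery then had 13 higher and 6 lower of 24, and the Pol III machinery 5 higher and 5 lower of 19. Called shares were 79.2% and 52.6%, against the 58.6% of all genes. Of the 16 calls made with all libraries, 8 held under all 16 alternatives, and the other 8 (POLR2E, POLR2K, GTF2H1, GTF2H2, GTF2H3, GTF2H5, POLR3A and POLR3K) were each lost when some single library was left out.

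The genes also differed in base composition. Over the 43 genes, the log2 fold change ran against the GC content of the transcript (Spearman rho = -0.62), a description over genes that share the same libraries. Across 12027 genes the same coefficient was -0.23. Transcripts of the 12 higher genes had a median GC of 40.9% and a range of 36.6% to 49.4%, those of the 4 lower genes 60.0% and 45.3% to 63.0%, and those of the 27 not called 51.3%. Over the whole table the medians were 49.1% for 2334 higher genes, 55.8% for 2037 lower genes and 49.8% for 7656 not called. By role, the median GC was 40.9% in the Pol II general factors, 50.8% in the Pol II-specific subunits and 60.1% in the shared subunits. It was 48.5% in the Pol III-specific subunits and 50.1% in the Pol III general factors, BDP1 included. Median log2 fold changes of the tested genes were, in the same order, 0.54, -0.18, 0.15, 0.24 and -0.01. Single libraries varied with GC too: the deviation of control replicate 1 from the other controls had a rho of 0.75 with GC over these genes and of 0.62 over 12027 genes. Such deviations also varied with transcript length, with a rho of -0.43, -0.32 and 0.44 in BMH-21 replicates 1, 2 and 3. In control replicates 1, 2 and 3 it was -0.50, 0.48 and 0.26. Over 12027 genes these were -0.38, -0.36 and 0.45 with BMH-21 and -0.26, 0.23 and 0.16 in controls. The log2 fold change had a rho of 0.09 with length over these genes and of 0.02 over 12027 genes.

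After removal of a length and GC trend from each library, an alternative added after seeing the data, 49.4% of all genes were called. The Pol II general factors then had 7 of 12 higher and 0 lower, the Pol II machinery 8 higher and 1 lower, and the Pol III machinery 6 higher and 3 lower. POLR2K (0.11, adjusted p = 0.44), POLR2E (-0.17, adjusted p = 0.097) and GTF2H5 (0.48, adjusted p = 0.052) lost their calls. POLR2J, POLR2L, POLR3E and GTF3C1 were among those that gained one. POLR3G had a log2 fold change of 0.17 (adjusted p = 0.42). The part of GC in the remaining differences was not tested.

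**Figure D4:**
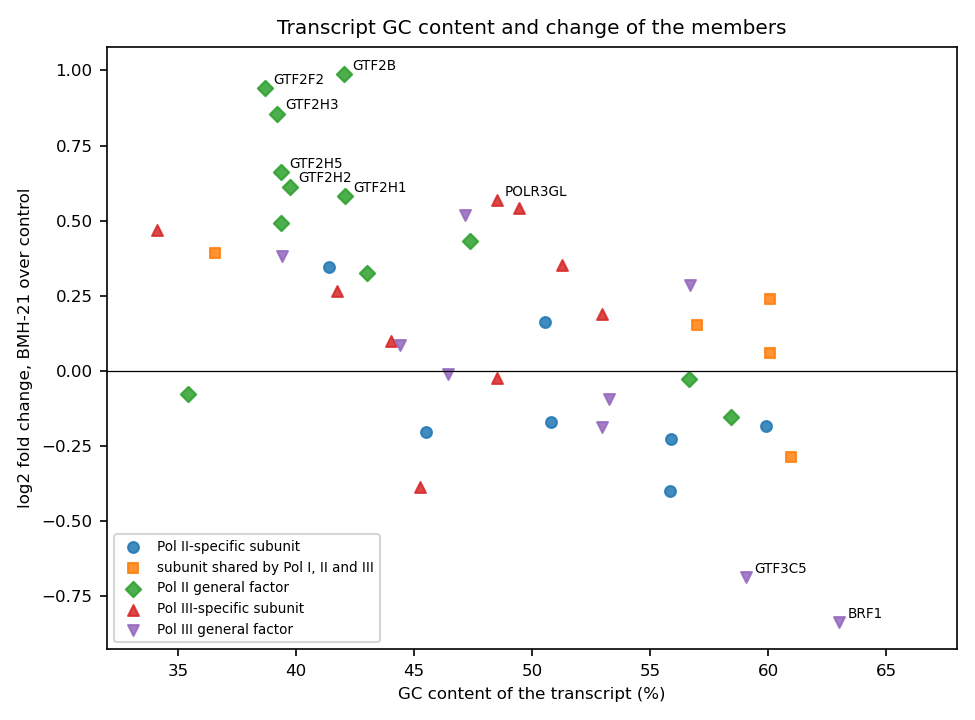
Log2 fold change, BMH-21 over control, against the GC content of the transcript in percent, 1 point per gene for 42 of the 43 genes tested, with symbols for roles. The general factors that rose lie at low GC with GTF2B on top, and GTF3C5 and BRF1 lie at high GC and low fold change (rho = -0.62 over all 43).

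Other genes that work with these enzymes gave mixed counts, to be read beside the 19.4% higher and 16.9% lower of all genes. Their counts without control replicate 1 and BMH-21 replicate 3 stand beside 2917 higher and 4144 lower of 12041 genes in that setting. TFIID, the complex that recognises core promoters, was listed with TBP and the TBP-like gene TBPL1. This list had 5 higher and 3 lower of 18, and a median of 0.18. TBPL1 was among those higher (0.61, adjusted p = 0.022, and 0.014 to 0.082 with 1 library left out). TAF13 had 34.2, 31.8 and 44.2 TPM with BMH-21, against 10.7, 15.9 and 14.6 TPM in controls, and rose by 1.36 (SE 0.17, adjusted p = 0.00043). TAF7 averaged 25.8 ± 1.74 TPM with BMH-21 and 14.3 ± 2.16 TPM in controls and rose by 0.81 (adjusted p = 0.0018). TAF6 averaged 22.8 ± 2.34 TPM with BMH-21 and 37.0 ± 1.41 TPM in controls and fell by 0.68 on the log2 scale (adjusted p = 0.0013). TAF15, an RNA-binding protein found with part of TFIID, fell by 0.64 (adjusted p = 0.028), a call lost without control replicates 2 or 3 or BMH-21 replicates 1 or 2 (0.075 to 0.093). Without control replicate 1 and BMH-21 replicate 3, this list had 5 higher and 8 lower, and TAF15 was at -1.0. Its median was then -0.07, the same as the -0.07 of all genes in that setting.

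The TFIIH kinase module phosphorylates the tail of POLR2A and activates cell cycle kinases. MNAT1, its assembly factor, had 25.4, 24.1 and 20.1 TPM with BMH-21, against 7.56, 13.3 and 12.0 TPM in controls, and rose by 1.04 (SE 0.20, adjusted p = 0.0039). CCNH, its cyclin, averaged 13.7 ± 1.43 TPM with BMH-21 and 8.75 ± 0.581 TPM in controls and rose by 0.59 (adjusted p = 0.0093). The helicase gene ERCC2 rose by 0.25 (adjusted p = 0.049), a call lost without any 1 library other than BMH-21 replicate 3 (0.071 to 0.19) and with either rescaling (0.18 and 0.23). The helicase gene ERCC3 and the kinase gene CDK7 were not called.

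Mediator, which relays signals from activators to Pol II, had 2 higher and 6 lower of 32, with 4 higher and 12 lower without control replicate 1 and BMH-21 replicate 3. MED16 averaged 23.2 ± 1.02 TPM with BMH-21 and 46.7 ± 3.53 TPM in controls (log2 fold change -0.98, adjusted p = 9.1e-05). MED22 fell by 0.62 on the log2 scale (adjusted p = 0.0075). Of the kinase module, CDK19 fell by 0.69 (adjusted p = 0.046) and the cyclin CCNC rose by 0.63 (adjusted p = 0.024). Both of these calls were lost without control replicate 2 or BMH-21 replicates 1 or 2 (0.053 to 0.15), the CDK19 call also without control replicate 3 (0.15) and the CCNC call also without control replicate 1 (0.077).

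Pausing and elongation factors had 8 higher and 4 lower of 32, with 9 higher and 12 lower without the same libraries. SSRP1, a subunit of the histone chaperone FACT, had 86.6, 81.2 and 98.6 TPM with BMH-21, against 181, 188 and 193 TPM in controls, and fell by 1.07 on the log2 scale (adjusted p = 3.1e-05). PAF1, of the elongation complex of that name, averaged 36.5 ± 3.89 TPM with BMH-21 and 65.7 ± 1.22 TPM in controls (-0.83, adjusted p = 0.00023). ELL2, a super elongation complex subunit, averaged 6.31 ± 0.222 TPM with BMH-21 and 2.85 ± 0.668 TPM in controls (0.94, adjusted p = 0.0033). LARP7, which holds the 7SK RNA, rose by 0.79 (adjusted p = 0.046), a call lost without control replicate 1 (a change of 0.48, adjusted p = 0.070) or BMH-21 replicates 1 (0.12) or 2 (0.13).

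Polymerase assembly factors had 4 higher and 2 lower of 13. PFDN6 and PFDN2, which belong to a prefoldin-type chaperone, averaged 145 ± 5.88 and 175 ± 5.38 TPM with BMH-21, against 101 ± 1.22 and 129 ± 8.67 TPM in controls, and rose by 0.52 and 0.43 (adjusted p = 0.00061 and 0.0027). GPN2, a GTPase, rose by 0.51 (adjusted p = 0.0041). URI1, also a prefoldin-type protein, rose by 0.51 (adjusted p = 0.038), a call lost without any 1 library other than control replicate 2 (0.066 to 0.082), and its change was 0.26 without both uneven libraries.

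SNAPc binds the promoters of small nuclear RNA genes of both polymerases and, with its partners, had 2 higher and 1 lower of 8, with 3 lower without both uneven libraries. SNAPC1 averaged 4.71 ± 0.306 TPM with BMH-21 and 2.25 ± 0.533 TPM in controls (0.83, adjusted p = 0.0062). SNAPC3 averaged 10.7 ± 0.976 TPM with BMH-21 and 6.40 ± 1.46 TPM in controls (0.68, adjusted p = 0.018, and 0.051 without BMH-21 replicate 1), and its change was 0.45 without both uneven libraries. SNAPC2 averaged 32.7 ± 0.968 TPM with BMH-21 and 42.7 ± 1.35 TPM in controls (-0.38, adjusted p = 0.0081, and -0.23 with a length and GC trend removed).

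Regulators and partners of Pol III had 2 higher and 2 lower of 10, with 3 higher and 4 lower without both uneven libraries. MAF1, its repressor, had 114, 120 and 104 TPM with BMH-21, against 160, 173 and 167 TPM in controls, and fell by 0.56 on the log2 scale (adjusted p = 0.00079). MYC, an activator of Pol III genes, averaged 383 ± 96.0 TPM with BMH-21 and 228 ± 28.2 TPM in controls and rose by 0.73 (adjusted p = 0.0090), or by 0.42 without both uneven libraries (adjusted p = 0.00024). POLR1D, a subunit of both Pol I and Pol III, fell by 0.47 (adjusted p = 0.0014). LARP7 is also on this list. Outside the set, the paralog POLR2J3 averaged 8.02 ± 1.07 TPM with BMH-21 and 13.0 ± 0.444 TPM in controls (-0.64, adjusted p = 0.0072), and may share reads with POLR2J. POLR2M, like-named but counted above with the pausing and elongation factors, has a locus that encodes the Pol II-associated protein Gdown1. It averaged 18.3 ± 3.78 TPM with BMH-21 and 10.7 ± 0.501 TPM in controls (0.71, adjusted p = 0.0092).

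Products of Pol III are short and mostly lack a poly(A) tail, and the labels name both polyA RNA and removal of ribosomal RNA, so how far they were captured is uncertain. Of 15 such RNAs in the table, 10 were tested, 2 rose and 2 fell. BCYRN1, a brain cytoplasmic RNA related to Alu repeats that can share its reads, had 1617, 1497 and 1049 TPM with BMH-21, against 422, 650 and 604 TPM in controls, and rose by 1.31 (SE 0.20, adjusted p = 0.0011). RPPH1, the RNA of RNase P, had 16.4, 12.9 and 11.6 TPM with BMH-21, against 5.20, 5.82 and 8.39 TPM in controls (0.98, adjusted p = 0.0052). RMRP, the RNA of RNase MRP, had 4.89, 4.29 and 4.69 TPM with BMH-21, against 10.8, 12.3 and 6.26 TPM in controls (-0.90, adjusted p = 0.015), a call lost without control replicate 2 (0.057) or BMH-21 replicate 2 (0.054). RNU6ATAC, a minor spliceosome RNA, had 1.06, 3.28 and 0 TPM with BMH-21, against 4.87, 3.48 and 5.66 TPM in controls (-1.44, adjusted p = 0.035), and its call was lost without control replicates 1 or 3 or BMH-21 replicates 1 or 3 (0.062 to 0.093, with a change of -0.91 without the last). RN7SK, the RNA that restrains the Pol II elongation kinase, had 49.7 and 34.3 TPM in BMH-21 replicates 1 and 2 and was listed at 0 in replicate 3, against 11.4, 10.4 and 18.9 TPM in controls. It was not called (-0.22, adjusted p = 0.91), and with control replicate 1 and BMH-21 replicate 3 both dropped it was called higher (1.49, adjusted p = 0.0059). Over the list, 3 were then higher and 3 lower.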

How the data were processed

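RNA of 6 HCT116 libraries was measured by sequencing. The deposited values are TPM per gene and library, made by the authors. The submitters' processing notes list STAR, Salmon and the build GRCh38 with no version or order. For annotation, strand use and filters, the steps are not stated in the labels. TPM keeps no depth, so no counting interval is given, and a change in total RNA is not visible.

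The comparison used limma 3.58.1 (R 4.3.3) on log2(TPM + 1), with an intensity trend and no covariate. All p-values are two-sided, with Benjamini-Hochberg adjustment across 12041 genes. The procedure was tested on simulated data. The within-library ratio was tested by exact permutation. Gene coordinates, length and GC content come from GENCODE 29 on GRCh38, the last 2 as medians over the principal transcripts of a gene where it has several; the POLR2A value rests on a partial model of 2083 bases. Promoters come from RefSeq. The genes and lists were chosen with earlier results of these data known. Values per library are given for a fixed set of genes and for called genes of each machinery, and of each further list up to 4 called genes with the largest change. In 14 alternative analyses the pseudocount, filter, scaling, variance trend, replicate block or set of libraries was changed. A further 2, without both uneven libraries and with a length and GC trend removed, were chosen after seeing the data. The values of 1 gene of the set are counted in the totals but are not reported here.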

Additional observations from a re-analysis of the deposited data

How the results depend on the processing

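None of the 16 called genes changed direction under the 16 alternatives run. Over all genes, 2340 were higher and 2040 lower, and 1659 to 2307 were higher and 1514 to 2812 lower when 1 library was left out; without control replicate 1 and BMH-21 replicate 3, 4144 were lower. The Pol II median was 0.15 with trimmed mean scaling, 0.14 with medians of ratios, 0.26 after quantile normalization and 0.14 to 0.23 with 1 library left out. The Pol III median was 0.06 to 0.21 with 1 library left out, lowest without control replicate 1, and 0.041 without both libraries. The Pol II genes higher numbered 5 with no filter on low values, 5 to 10 with 1 library left out and 13 without both libraries. Those lower numbered 0 with trimmed mean or medians of ratios scaling or without the intensity trend, 0 to 3 with 1 library left out and 6 without both libraries. The Pol III genes higher numbered 5 without both libraries, 6 with the length and GC trend removed and 2 to 3 with 1 library left out; those lower numbered 5 without both libraries and 2 to 4 with 1 left out. The difference in the log2 ratio of POLR3G to POLR3GL was -0.19 to 0.13 with 1 library left out and 0.11 without both. With a replicate block, the Pol II genes lower numbered 2, POLR2A being called (adjusted p = 0.044), the Pol III genes higher numbered 4, POLR3E being called (0.034), and over all genes 2503 were higher and 2105 lower. Same-numbered libraries did not deviate together (r = 0.04, -0.14 and 0.02), and not every library correlated best with its own number, so the numbers were not taken as pairs. The cause of these shifts was not tested. With 3 libraries a group, unknown depth and unstated strand use, small changes and overlapping or copied genes (among them GTF2H2, GTF2H4, BRF2, POLR2I, POLR2L and POLR3GL) carry the least weight.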
